A study of Mus musculus with 29 samples.

Results

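Reads of antibody genes were described in RNA-seq libraries of sorted mouse hematopoietic stem cells (HSCs), gene by gene for the immunoglobulin variable (V) segments. The V genes were selected on their read counts: a symbol that starts with Ighv, Igkv or Iglv was kept if its raw counts over the 19 libraries summed to at least 100. This rule kept 249 of the 346 V symbols in the count files, 127 of 183 heavy chain symbols (Ighv), 119 of 160 kappa symbols (Igkv) and 3 of 3 lambda symbols (Iglv). The files list 55376 symbols in all. Just inside the threshold were Ighv8-6 with 101 and Igkv14-118-1 with 102 summed counts, and just outside it were Ighv1-38 with 94 and Igkv4-81 with 93. Because the level of the V genes chose them, the level itself is given below as a description.

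The study compared HSCs of young and old mice, wild type or with a knockout of Gadd45b, a stress-inducible gene whose protein has been linked to DNA demethylation. Groups are young wild type (YWT, 4 libraries), old wild type (OWT, 4 libraries), young knockout (YKO, 4 libraries) and old knockout (OKO, 7 libraries). The labels give age only as young or old, and sex as F for each library, whereas the methods say that both sexes were included. HSCs were sorted as Lin-cKit+Sca1+CD34-Flk2-CD150+ cells, with B220, a B lineage marker, among the lineage antibodies that were gated out. Nothing in the labels ties a library to its own animal, so p-values measure the spread between libraries. A list of samples in the study names 2 batches, which match a prefix in the library titles: batch 1 holds YWT, YKO and OKO1 to OKO3, and batch 2 holds OWT and OKO4 to OKO7. Age in wild type and batch can therefore not be told apart. Counts of Gadd45b were lower in OKO (3.12 to 7.14 CPM, counts scaled to the library total) than in OWT (9.16 to 14.5 CPM), with no overlap, as the labels have it. In young mice they overlapped, at 8.29 to 12.1 CPM in YWT and 4.802 to 13.7 CPM in YKO, and so do not check the YKO labels. These are reads over the whole gene, and which of them fall in the deleted part is not given in the sources used here. Library names are those of the labels throughout.

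An antibody heavy chain is encoded by a V, a D and a J segment that a developing B cell joins in its own genome, and a light chain by a V and a J segment at the kappa or the lambda locus. The RAG recombinase cuts beside each segment at a recombination signal, made of a conserved heptamer, a spacer and a nonamer, and joins segments with unlike spacers. Each B cell clone thus keeps a particular V gene for its heavy chain and another for its light chain, and plasma cells transcribe that pair at very high levels. HSCs stand before this step. Gene-level counts do not tell rearranged from unrearranged V segments. The share of each V gene among the V reads of a chain is used to compare antibody repertoires between samples.

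The recombination signals of 8 V genes that led a library or moved in pairs are shown, because these are the ends at which the segments named below are joined. Sequence was read from the mm10 genome on the coding strand, 5′ to 3′, and starts in the last bases of the V exon. Capitals mark the heptamer and the nonamer. Heavy and lambda V genes carried a spacer of 23 bases (22 in Ighv14-4) and kappa V genes a spacer of 12 bases.
Ighv3-6 (chr12:114288113-114288162, minus strand): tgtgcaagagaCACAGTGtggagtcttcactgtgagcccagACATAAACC
Ighv11-2 (chr12:114048202-114048251, minus strand): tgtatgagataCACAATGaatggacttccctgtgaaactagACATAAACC
Ighv14-4 (chr12:114176400-114176448, minus strand): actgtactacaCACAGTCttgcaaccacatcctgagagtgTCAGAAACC
Ighv5-6 (chr12:113625467-113625516, minus strand): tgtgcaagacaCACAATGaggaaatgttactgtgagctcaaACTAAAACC
Igkv12-46 (chr6:69764495-69764533, minus strand): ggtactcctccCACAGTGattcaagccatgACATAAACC
Igkv14-126 (chr6:67896632-67896670, plus strand): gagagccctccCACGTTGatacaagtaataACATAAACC
Igkv6-20 (chr6:70335813-70335851, minus strand): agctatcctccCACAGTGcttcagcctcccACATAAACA
Iglv1 (chr16:19084978-19085027, minus strand): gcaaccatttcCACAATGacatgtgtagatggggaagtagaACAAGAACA

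The heptamer CACAGTG, searched at the end of the V exon on the coding strand, was present in full in 79 of the 107 selected Ighv genes of functional type (73.8%), 85 of 98 such Igkv genes (86.7%) and 0 of 3 Iglv genes. Of the 8 genes above, Ighv3-6, Igkv12-46 and Igkv6-20 carry it and the other 5 carry a variant of it.

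V gene promoters are known for an octamer, ATGCAAAT, that the Oct factors and their B cell coactivator bind. It was searched on both strands from 250 bases before to 50 bases after the annotated gene start. The octamer was found at 191 of the 249 selected V genes (76.7%), 33 of the 97 V symbols under the threshold (34.0%) and 570 of 32851 annotated promoters of all genes (1.74%). The symbols under the threshold were mostly pseudogenes, with the octamer at 18 of 49 for Ighv and 8 of 39 for Igkv. Functional genes under the threshold had it at 5 of 7 and 2 of 2. Selected pseudogenes had it at 18 of 20 for Ighv and 13 of 21 for Igkv. Of the functional Ighv genes, 86 of 107 have it in the forward direction and 0 in reverse, while 71 of 98 Igkv genes have its reverse complement, ATTTGCAT, and 2 the forward form. The 2 heavy and 2 kappa promoters below show these directions, with the octamer in capitals. No match was found in the windows of Ighv14-4 and Igkv6-20.
Ighv3-6 (chr12:114288654-114288721, minus strand): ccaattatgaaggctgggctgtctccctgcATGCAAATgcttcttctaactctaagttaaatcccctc
Ighv11-2 (chr12:114048775-114048842, minus strand): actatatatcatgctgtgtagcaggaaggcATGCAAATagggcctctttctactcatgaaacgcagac
Igkv12-46 (chr6:69765055-69765122, minus strand): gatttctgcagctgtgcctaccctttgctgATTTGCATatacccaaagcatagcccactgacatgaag
Igkv14-126 (chr6:67896056-67896123, plus strand): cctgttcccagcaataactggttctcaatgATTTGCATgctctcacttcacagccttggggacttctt

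Every library held V reads, from 6918 in OKO1 to 5031701 in YWT2. As a percent of the library total, V reads made up 0.455, 8.40, 0.802 and 0.934% in YWT1 to YWT4, 0.843, 0.143, 3.95 and 5.31% in OWT1 to OWT4, and 2.88, 4.57, 0.280 and 0.276% in YKO1 to YKO4. In OKO the lowest value was 0.0253%, the median 0.579% and the highest 6.35%. The groups overlapped throughout, and the libraries of a group differed by more than 10-fold. Within OKO the batches did not overlap: OKO1 to OKO3 ran from 0.0253 to 0.132% and OKO4 to OKO7 from 0.579 to 6.35%. Fewer antibody-producing cells and less antibody RNA per cell cannot be told apart in these bulk libraries.

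Plasma cell markers were lowest and highest in the same libraries as the V reads. The sum of 8 plasma cell markers, Jchain among them, ranged from 228 CPM in OKO1 to 18724 CPM in YWT2, with no gene of the list at 0 in any library. The sum of 10 B cell markers, from 44.5 CPM in OKO2 to 1553 CPM in YKO2 and also with none at 0, followed another order. OKO7, with 6.35% of V reads, had 159 CPM, and YKO4, with 0.276%, had 199 CPM. Jchain alone, which encodes the joining chain of secreted IgM and IgA, was at 37.2 CPM in OKO2 and 17174 CPM in YWT2. The sum of 9 HSC markers lay between 1896 and 4388 CPM and that of 6 T cell markers between 8.61 and 95.5 CPM. Other lists also ranged widely, with 36.0 to 3834 CPM for 5 erythroid markers and 7.92 to 385 CPM for 6 granulocyte markers. The part of such cells in the V reads was not tested. Library totals were 22197555 to 77970627 counts.

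A few V genes made up most of the V reads of a library, and they differed from library to library. The effective number of V genes is 1 divided by the sum of squared shares, and equals the number of genes if all were used evenly. For heavy chains it was 17.2, 1.05, 16.04 and 15.2 in YWT1 to YWT4, 7.74, 18.4, 12.8 and 2.92 in OWT1 to OWT4, and 4.82, 24.1, 16.3 and 9.03 in YKO1 to YKO4, with a lowest of 4.91, a median of 6.07 and a highest of 18.1 in OKO. For light chains it ran from 1.63 in YWT2 to 16.9 in OKO4. Far more V genes were detected than these numbers, between 91 and 126 heavy and between 96 and 122 light V genes per library with at least 1 read. The groups overlapped in both chains, and no test was made because the score is taken over genes chosen for their level.

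**Figure D1:**
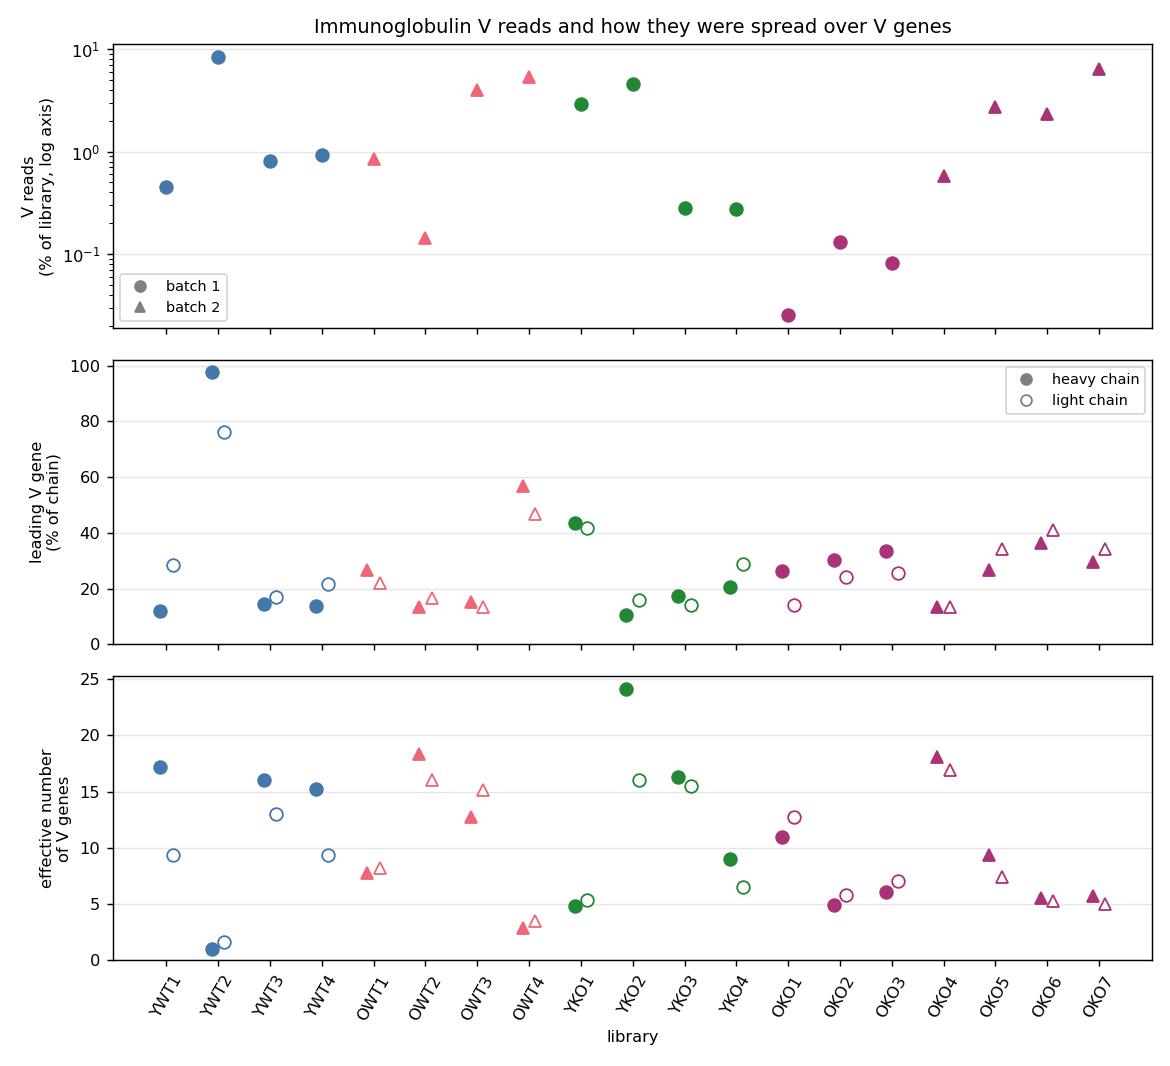
V reads as a percent of the library total (top, log axis), the share of the leading V gene (middle) and the effective number of V genes (bottom) in each of the 19 libraries, colored by group, with filled symbols for heavy and open symbols for light chains in the lower panels. YWT2 has the most V reads (8.40%) and the lowest effective numbers (1.05 and 1.63), and OKO1 to OKO3 have 0.0253 to 0.132% of V reads.

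In YWT the heavy chains were led by Ighv3-6 or Ighv1-9. Ighv3-6 made up 12.03, 97.6, 11.5 and 9.21% of heavy V reads in YWT1 to YWT4, and it was the leading gene in YWT1 and YWT2. Ighv1-9 led YWT3 with 14.6% (95% Wilson interval 14.4 to 14.8) and YWT4 with 13.6%. YWT2 stood apart. Its heavy chains were nearly all Ighv3-6 (97.5 to 97.6), and its light chains were Igkv12-46 at 76.2% and Igkv6-32 at 17.7%. The next heavy V gene of YWT2, Ighv3-2, had 0.197%. Igkv1-122 led the light chains of YWT1 with 28.4%, Igkv12-46 those of YWT3 with 17.0% and Igkv19-93 those of YWT4 with 21.8%. Intervals cover counting error only, since the reads carry no molecular identifiers.

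The 4 OWT libraries had 4 different leading V genes in each chain. OWT1 was led by Ighv9-1 (26.8%) and Igkv6-20 (22.1%), OWT2 by Ighv9-3 (13.2%) and Igkv19-93 (16.7%), and OWT3 by Ighv1-58 (15.1%) and Igkv16-104 (13.5%). OWT4 was led by Ighv5-6 with 56.9% (56.8 to 57.0), a gene with at most 4.90% in any other library. Its light chains were Iglv1 at 46.8% and Iglv3 at 23.3%, and the 3 lambda V genes together made up 72.5% of its light V reads.

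YKO libraries likewise differed. YKO1 was led by Ighv6-3 (43.4%) and Igkv3-2 (41.6%), YKO2 by Ighv14-2 (10.6%) and Igkv4-68 (15.8%), YKO3 by Ighv1-53 (17.3%) and Iglv1 (14.0%), and YKO4 by Ighv1-50 (20.7%) and Igkv3-2 (28.9%). Igkv3-2 was thus the leading light V gene of both YKO1 and YKO4, with different heavy V genes. YKO2 had the flattest heavy repertoire of the 19 libraries, and a single heavy V gene over 10%.

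The OKO libraries had 7 different heavy leaders. They were Ighv1-64 in OKO1 (26.1%, interval 24.5 to 27.8 from 2879 heavy V reads), Ighv5-9 in OKO2 (30.2%), Ighv1-9 in OKO3 (33.5%), Ighv6-6 in OKO4 (13.2%), Ighv1-26 in OKO5 (26.7%), Ighv11-2 in OKO6 (36.3%) and Ighv14-4 in OKO7 (29.7%). Their light chains were led by Igkv8-27 in OKO1 (14.2%) and OKO3 (25.6%), Igkv8-24 in OKO2 (24.1%), Igkv14-111 in OKO4 (13.5%), Igkv4-91 in OKO5 (34.2%), Igkv14-126 in OKO6 (40.8%) and Iglv1 in OKO7 (34.2%). Precision differed widely here, as OKO1 had the fewest V reads and OKO7, with 3982540, the most of the group.

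**Figure D2:**
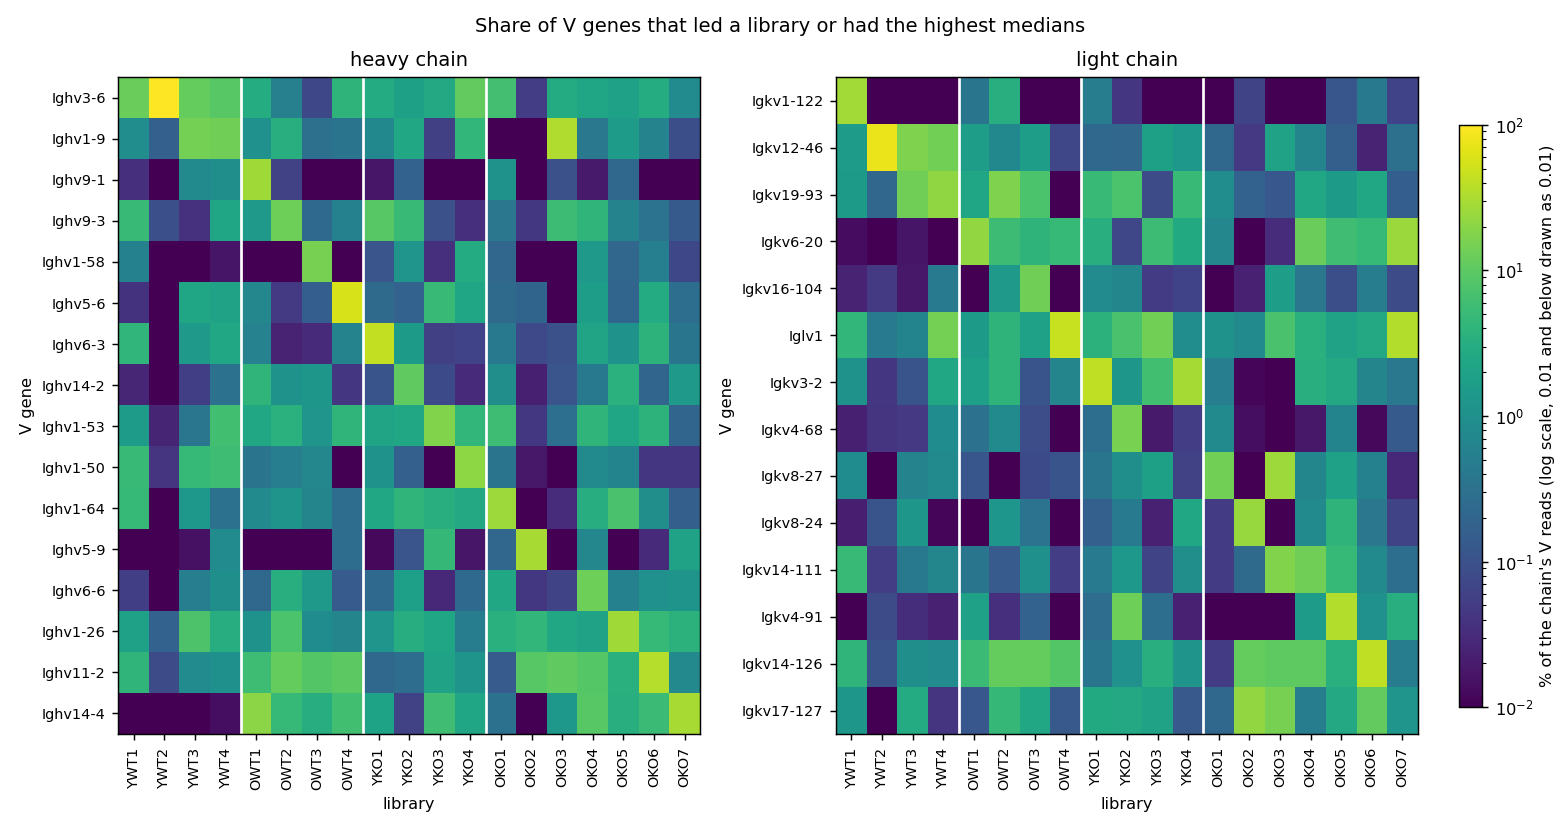
Share of V reads of the chain (color, log scale) for the V genes that led a library or had the highest median share, in 19 libraries ordered by group and separated by white lines. Most leading genes are bright in a single library, such as Ighv5-6 in OWT4 at 56.9%, while Ighv11-2 and Igkv14-126 show the same pattern across the columns.

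Over all libraries, 16 heavy and 13 light V genes led at least 1 library, and 26 heavy and 24 light V genes passed 10% somewhere. No V gene passed 10% in 10 or more libraries. Of the 127 heavy V genes, 56 had over 50% of their summed counts in 1 library, as had 59 of the 122 light V genes. At the other end, 54 heavy and 54 light V genes never reached 1% of their chain. The library with the most reads of a V gene was YKO2 for 59 of the 249 genes, OKO5 for 40 and OWT3 for 34.

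The 5 heavy V genes with the highest median share were Ighv11-2 (3.47%), Ighv3-6 (2.94%), Ighv1-53 (2.47%), Ighv1-26 (2.42%) and Ighv14-4 (2.22%). Among light V genes they were Iglv1 (3.45%), Igkv14-126 (3.40%), Igkv6-20 (3.20%), Igkv19-93 (2.26%) and Igkv17-127 (2.03%). Several of these also led a library, Ighv3-6 with the highest share of any. Ighv1-26 lay between 0.182% in YWT2 and 26.7% in OKO5, and Ighv1-53 between 0.0260% in YWT2 and 17.3% in YKO3. Igkv19-93 was at 1.52, 0.213, 13.3 and 21.8% in YWT1 to YWT4 (median 7.44%) and at 0.121 to 2.50% in OKO. YWT1 and YWT2 thus lay within the range of OKO. OWT, with 12 reads of the gene in OWT4 and 16.7% in OWT2, and YKO (0.0819 to 7.41%) covered that range.

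Heavy and light V genes moved together in a few pairs. Among 15494 combinations of a heavy and a light V gene, the median Spearman rho of their shares over the 19 libraries was 0.13, and 3 combinations reached 0.9. The highest was Ighv11-2 with Igkv14-126, a combination known from antibodies of B-1a cells, a self-renewing B cell lineage, that bind phosphatidylcholine. Pairs were picked as the best of many, shares of 1 library add up to 100%, and batch is shared by libraries, so the correlations are given as a description with no p.

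Ighv11-2 (chr12:114048241-114048812) made up 4.07, 0.0835, 0.843 and 1.03% of heavy V reads in YWT1 to YWT4, 5.68, 11.3, 8.47 and 9.89% in OWT1 to OWT4, and 0.220, 0.266, 2.04 and 1.17% in YKO1 to YKO4. In OKO its lowest share was 0.139%, its median 8.73% and its highest 36.3%. Igkv14-126 (chr6:67896172-67896642) made up 4.16, 0.105, 0.969 and 0.844% of light V reads in YWT1 to YWT4, 5.32, 11.5, 11.3 and 8.36% in OWT1 to OWT4, and 0.363, 1.05, 3.34 and 1.20% in YKO1 to YKO4. Both genes had their highest share in OKO6 and their lowest in YWT2 or OKO1, and in both the OWT libraries lay above all YWT and YKO libraries. OWT is batch 2, whereas YWT and YKO are batch 1, so batch cannot be told apart from this difference. In CPM both genes overlapped between OWT and YWT. Igkv14-126 in OKO had a lowest share of 0.0495%, a median of 10.01% and a highest of 40.8%.

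The shares of Ighv11-2 and Igkv14-126 had a rho of 0.96 and a Pearson r of 0.99 (n = 19), and an r of 0.97 without OKO6 and OWT2, the libraries farthest from the median of Ighv11-2. Within batch 1 rho was 0.95 (n = 11) and within batch 2 it was 0.90 (n = 8). In 17 of the 19 libraries their shares were within 2-fold of each other. The next light V gene in likeness to Ighv11-2, Igkv14-118-2, had a rho of 0.60.

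**Figure D3:**
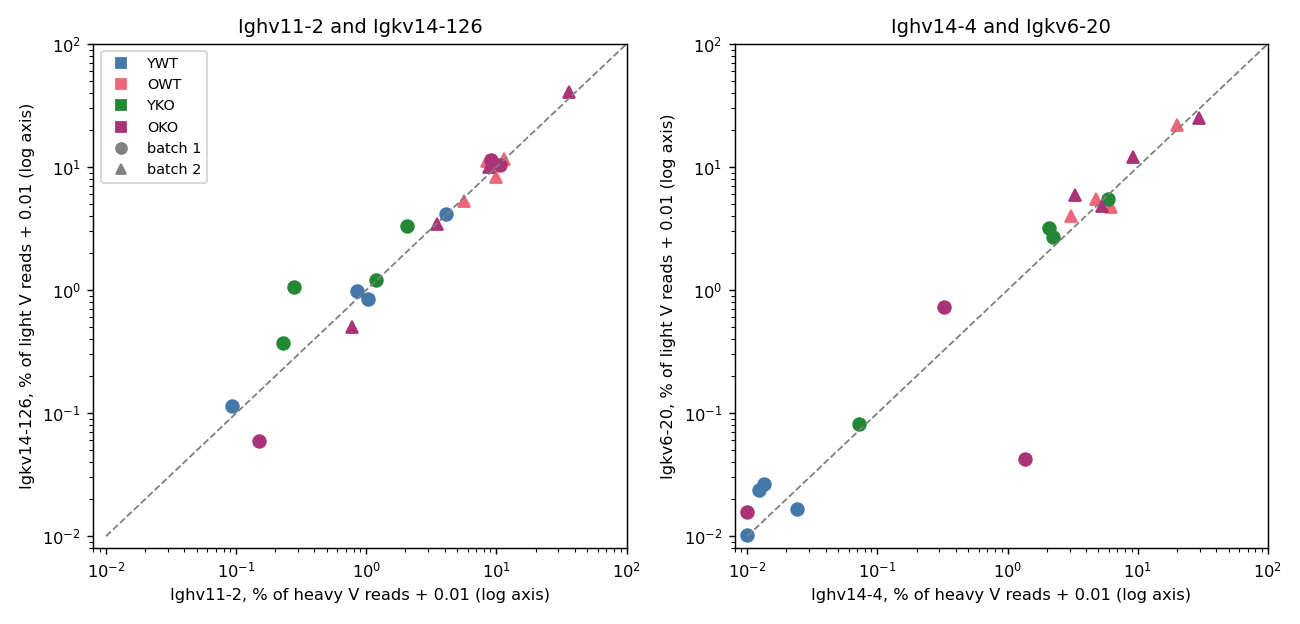
Share of a heavy V gene among heavy V reads against that of a light V gene among light V reads, each with 0.01 added, on log axes, with 1 point per library and the line of equal shares dashed. Ighv11-2 and Igkv14-126 lie within 2-fold of each other in 17 of 19 libraries, and Ighv14-4 and Igkv6-20 in 12.

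The second combination was Ighv14-4 with Igkv6-20. Ighv14-4 (chr12:114176438-114176867) was nearly absent from YWT, with between 0 and 15 reads per library. It made up 19.9, 4.78, 3.06 and 6.20% of heavy V reads in OWT1 to OWT4, 2.08, 0.0619, 5.90 and 2.22% in YKO1 to YKO4, and in OKO had a lowest share of 0, a median of 3.26% and a highest of 29.7%. Igkv6-20 (chr6:70335841-70336507) had between 6 and 59 reads in each YWT library. Its share was 22.1, 5.53, 3.96 and 4.75% in OWT1 to OWT4 and 3.20, 0.0710, 5.49 and 2.68% in YKO1 to YKO4, with a lowest of 0.00573%, a median of 4.84% and a highest of 24.98% in OKO. YWT lay below every OWT and YKO library for both genes, and the 3 OKO libraries of batch 1, at 0 to 1.35% and 0.00573 to 0.718%, below every OKO library of batch 2.

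For Ighv14-4 and Igkv6-20 rho was 0.95 and r 0.98 (n = 19), with an r of 0.95 without OKO7 and OWT1. Within batch 1 rho was 0.93 and within batch 2 it was 0.76. OKO3 stood off the line, with 1.35% of Ighv14-4 and 0.0322% of Igkv6-20. Igkv6-29, whose V exon is 98.3% identical to that of Igkv6-20, had the next highest rho with Ighv14-4, at 0.87.

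The third combination with a rho over 0.9 was Ighv11-1 with Igkv14-118-2, at 0.91. Ighv11-1 shares 98.7% of its V exon with Ighv11-2, and Igkv14-118-2 is annotated as a pseudogene, and the assignment of reads among such relatives was not tested. Among the other leading genes the highest rho was 0.84, for Ighv1-58 with Igkv6-13. The closest light V gene to Ighv3-6 had a rho of 0.49 and that to Ighv5-6 a rho of 0.55.

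The leading heavy V gene had over 25% of its chain in 10 of the 19 libraries, and the leading light V gene in 9. The leading heavy and the leading light share were often close within a library. They were 43.4 and 41.6% in YKO1, 13.2 and 13.5% in OKO4 and 36.3 and 40.8% in OKO6. They were far apart in YWT2 (97.6 and 76.2%) and in YWT1 (12.03 and 28.4%). Bulk reads do not tell which heavy chain was made in the same cell as which light chain.

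Lambda V genes followed the lambda constant genes. Lambda made up 4.68, 0.614, 4.37 and 16.5% of light V reads in YWT1 to YWT4, 3.31, 5.98, 2.86 and 72.5% in OWT1 to OWT4, and 3.99, 7.55, 14.4 and 1.06% in YKO1 to YKO4, with a lowest of 0.916%, a median of 4.53% and a highest of 36.0% in OKO. All but OWT4 and OKO7 lay below 20%, and the groups overlapped. Iglc1, Iglc2 and Iglc3 together made up 66.5% of light constant reads in OWT4 and 25.5% in OKO7, and between 0.761 and 14.6% in the other libraries. In OWT4, Iglc1, which lies beside the Iglj1 segment, had 42.8% and Iglc2 22.9%. Iglv1 and Iglv2 share 97.4% of their V exons, so reads can be split between them.

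Heavy constant genes, which set the antibody class, also differed by library. Ighm, the constant gene of IgM, led 16 of the 19 libraries, with 53.0 to 99.5% of heavy constant reads. YKO2 had nearly equal Ighm (49.0%) and Igha (49.5%), the constant gene of IgA. OKO2 and OKO3 were different, with 15.7 and 18.1% of Ighm and with 80.8 and 49.0% of IgG constant genes. In OKO2 Ighg2b led with 36.0%, and in OKO3 Igha led with 32.9%, ahead of Ighg2b with 21.3%. J segments were also uneven in the 2 libraries whose leading heavy V gene had over 50% of its chain. Ighj1 made up 83.7% of heavy J reads in YWT2, and Ighj4 75.6% in OWT4. Heavy J segments are far fewer than V genes, so their shares are not on the same scale.

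**Figure D4:**
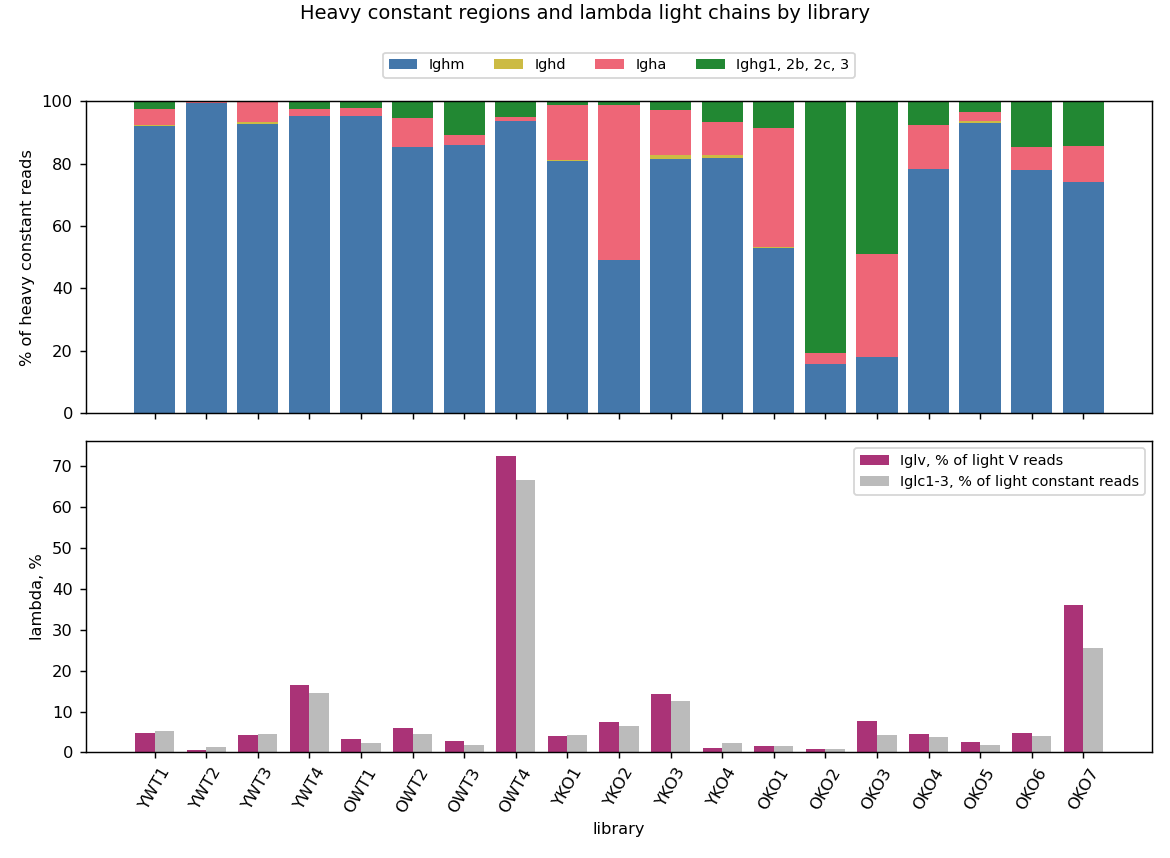
Reads of Ighm, Ighd, Igha and the 4 Ighg genes as a percent of heavy constant reads (top, stacked bars), and lambda V genes and lambda constant genes as a percent of the light V and light constant reads (bottom), in 19 libraries. Ighm makes up most of the bar in all but YKO2, OKO2 and OKO3, and lambda stands out in OWT4 (72.5 and 66.5%) and OKO7 (36.0 and 25.5%).

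By family, the 66 selected Ighv1 genes together had a median of 47.8% of heavy V reads, from 1.04% in YWT2 to 71.6% in YWT4. Ighv5 (11 genes) had a median of 7.90% and Ighv14 (4 genes) of 4.53%. Among kappa families, Igkv4 (31 genes) had a median of 15.6% and Igkv6 (9 genes) of 12.1%. Position on the chromosome did not single out a stretch of the heavy locus in all libraries. When the 127 heavy V genes were put in 4 groups by their order on mm10 chromosome 12, the group nearest the D and J segments held 0.731 to 73.0% of heavy V reads (median 19.6%), and the farthest 0.426 to 45.4% (median 16.5%).

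V pseudogenes were 41 of the 249 members, 20 heavy and 21 light, and held 0.0826 to 5.59% of heavy and 0.0365 to 4.68% of light V reads, with both highest values in OKO1. In YWT2 a pseudogene, Igkv4-73, had 63321 reads, or 1.91% of light V reads. Its nearest V exon, that of Igkv4-79, is 95.5% identical, and Igkv4-79 had 0.00539% of the light V reads of YWT2. The source of the reads of Igkv4-73 was not tested. Of the 249 members, 126 have another V exon that is at least 95% identical, and 24 have one at least 98% identical. Shares of those genes depend on how the authors' counting assigned reads that fit both.

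Libraries were compared in pairs by their shared V usage. Shared usage is the summed lower share of each V gene in a pair of libraries. For heavy chains its median was 26.0% over the 39 pairs within a group and 23.98% over the 132 pairs between groups. For light chains the medians were 27.1 and 24.99%. Among pairs of the same batch they were 27.9% within and 24.1% between groups for heavy chains, and 28.7 and 21.99% for light chains. The 12 pairs of OKO libraries across batches had medians of 19.1 and 21.1%. Pairs share libraries, so no test was made.

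Each V gene was then tested between groups with all 33690 genes that passed the filter on low counts, by the quasi-likelihood test of edgeR with Benjamini-Hochberg adjustment over all of them. Calls needed a fold change of more than 1.5 together with an adjusted p below 0.05. Of the 249 V genes, 242 passed the filter. The comparisons share groups, so their results are not independent of each other.

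Age in wild type, OWT against YWT, gave no called V gene of 242, against 0.00297% of all tested genes. At an unadjusted p under 0.05 there were 62 V genes, 44 of them higher in OWT, against 4.38% of all genes. DESeq2 called 8 V genes, all of them higher in OWT, against 0.401% of all genes, and gave no adjusted p for 86. The smallest adjusted p in edgeR was that of Ighv14-4, whose log2 fold change was 11.87 ± 2.76 (approximate SE, edgeR adjusted p = 0.252). Igkv6-20 had a log2 fold change of 11.30 ± 2.90 (adjusted p = 0.321). In CPM, Ighv14-4 was at 0 to 0.352 in YWT and at 22.2 to 619 in OWT, and Igkv6-20 at 0.100 to 0.945 and at 53.6 to 2050. The same 2 genes rest on few reads in YWT, so their fold changes depend on the prior count. With the test of edgeR restricted to the groups compared, 4 of 188 V genes were called, all of them higher in OWT, against 0.158% of all genes in that fit. By range alone, 9 of 242 V genes did not overlap between OWT and YWT, a share of 3.72% that is near the 3.1% over all tested genes. Ighv11-2 and Igkv14-126, whose shares were higher in every OWT library, overlapped in CPM. Their log2 fold changes were 4.05 ± 1.46 (edgeR adjusted p = 0.820) and 4.58 ± 1.70 (adjusted p = 0.905). OWT is batch 2 and YWT batch 1.

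Genotype in young mice, YKO against YWT, also gave no called V gene in edgeR, against 0.0267% of all tested genes. At an unadjusted p under 0.05 there were 66 V genes, 56 of them higher in YKO, against 4.59% of all genes. DESeq2 called 20, of which 19 were higher in YKO, against 0.416% of all genes. Both groups are in batch 1. Ighv14-4 was at 9.41 to 195 CPM in YKO (log2 fold change 9.54 ± 2.56, edgeR adjusted p = 0.409) and Igkv6-20 at 21.7 to 621 CPM (8.92 ± 2.66, adjusted p = 0.563). Ighv3-6 had a log2 fold change of -5.79 ± 1.99 (adjusted p = 0.761), with 97.6% of the heavy V reads of YWT2 behind it. Without overlap were 6 of 242 V genes (2.48%), against 3.38% of all tested genes.

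Age in knockout, OKO against YKO, gave 4 called V genes of 242 (1.65%), all of them lower in OKO, against 0.692% of all genes called lower and 1.29% called in either direction. These were Ighv5-15, Ighv3-1, Igkv4-79 and Igkv10-94. DESeq2 called 11 V genes, 7 lower and 4 higher in OKO, against 6.23% of all genes. It gave no adjusted p for 77. None of the 242 V genes was without overlap between the groups, against 2.16% of all tested genes.

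Ighv5-15 (chr12:113826646-113827129) was at 222, 21.2, 0.0397 and 0.08 CPM in YKO1 to YKO4. In OKO it was at 0.0924 to 1.06 CPM with a median of 0.306, a log2 fold change of -7.73 ± 1.41 (edgeR adjusted p = 0.00694). YKO1 and YKO2 were high, and YKO3 and YKO4 lay below every OKO library. Without YKO1 the log2 fold change was -4.42 with an adjusted p of 0.153. YWT was at 0 to 1.07 CPM and OWT at 0.0641 to 0.510 CPM.

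Ighv3-1 (chr12:113964388-113964818) was at 0.225, 1511, 0 and 0.112 CPM in YKO1 to YKO4 and at 0 to 1.12 CPM with a median of 0.0874 in OKO. Its log2 fold change of -10.55 ± 2.20 (edgeR adjusted p = 0.0184) rests on YKO2. Without that library it was 1.29 with an adjusted p of 0.647. In YKO2, Ighv3-1 made up 9.93% of heavy V reads.

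Igkv4-79 (chr6:69042972-69043505) was at 10.7, 20.3, 0.635 and 0.544 CPM in YKO1 to YKO4. OKO ran from 0.0920 to 0.878 CPM with a median of 0.287, at a log2 fold change of -4.57 ± 1.08 (edgeR adjusted p = 0.0373). Again YKO1 and YKO2 were high, and YKO3 and YKO4 lay within the range of OKO. Igkv10-94 (chr6:68704508-68704978) was at 642, 921, 2.66 and 1.02 CPM in YKO1 to YKO4 and at 0.208 to 31.4 CPM with a median of 1.75 in OKO (-5.54 ± 1.39, edgeR adjusted p = 0.0499). YKO1 and YKO2 were the libraries with the most V reads of YKO. Among the YKO and OKO libraries, all 4 genes were highest in either of them. Igkv4-79 was not called without YKO1 (-4.31, edgeR adjusted p = 0.134) or YKO2 (-3.54, adjusted p = 0.103), nor was Igkv10-94 (-5.09, adjusted p = 0.164, and -4.70, adjusted p = 0.0966). Without YKO1 or without YKO2, 1 V gene was called.

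**Figure D5:**
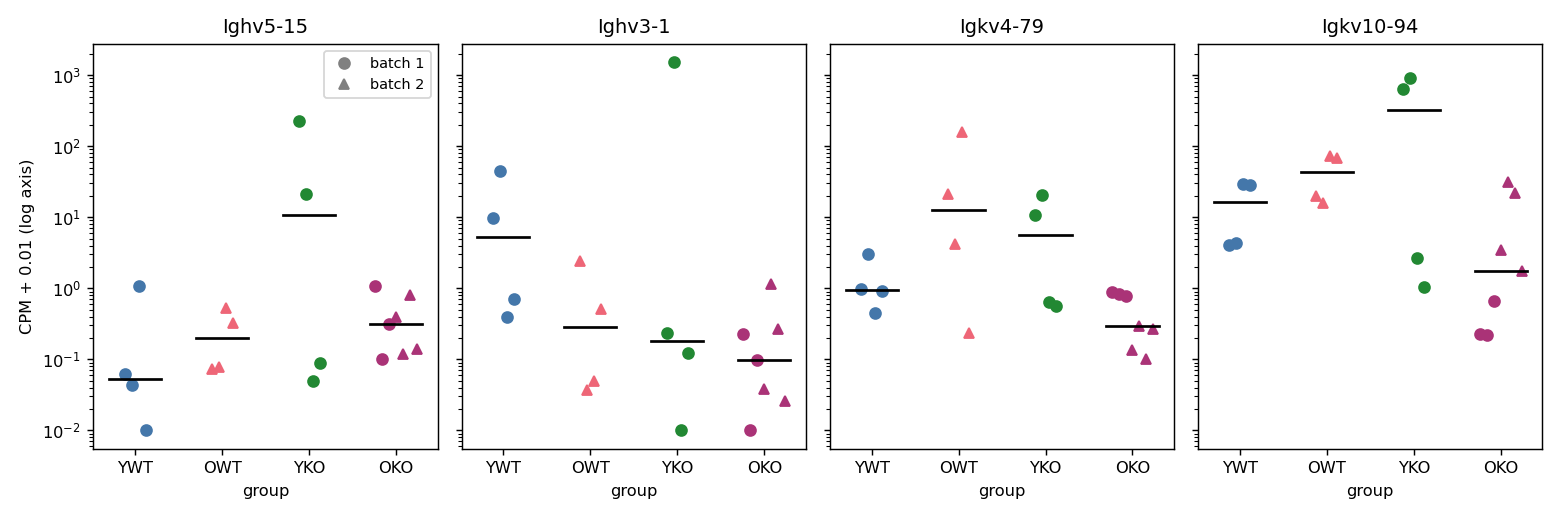
CPM plus 0.01 (log axis) of the 4 V genes called in OKO against YKO, with 1 point per library, circles for batch 1, triangles for batch 2, and bars for the group medians. In YKO the 2 highest points are YKO1 and YKO2 for Ighv5-15, Igkv4-79 and Igkv10-94, and for Ighv3-1 YKO2 is at 1511 CPM with the other 3 libraries at 0 to 0.225.

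The count differed by batch. Within batch 1, OKO1 to OKO3 against YKO, 104 of 236 V genes (44.1%) were called, all of them lower in OKO, against 11.6% of all tested genes called lower. With batch as a covariate, 109 of 242 were called (45.0%), all of them lower. Of all 33690 tested genes, 4498 were called lower and 19.1% in either direction. Only OKO is in both batches, so this fit also rests on OKO1 to OKO3 against YKO. Several marker lists were lower too. The B cell sum was 44.5 to 80.0 CPM in OKO1 to OKO3, 80.3 to 159 CPM in OKO4 to OKO7 and 199 to 1553 CPM in YKO. The plasma cell sum was 228 to 517 CPM in OKO1 to OKO3 and 723 to 13189 CPM in YKO, and the erythroid sum 36.0 to 1327 CPM against 1335 to 3834 CPM. The HSC sum went the other way, at 3288 to 4366 CPM in OKO1 to OKO3 and 2004 to 2817 CPM in YKO. The other marker lists overlapped. The part of these lists in the lower V genes was not tested.

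Genotype in old mice, OKO against OWT, gave 1 called V gene that was lower in OKO, against 0.0178% of all tested genes called lower. This was Igkv4-79, at 21.4, 4.24, 158 and 0.228 CPM in OWT1 to OWT4 and at 0.0920 to 0.878 CPM in OKO (log2 fold change -7.06 ± 1.177, edgeR adjusted p = 0.0231). OWT4 lay within the range of OKO. Without OWT3 the log2 fold change was -4.63 with an adjusted p of 0.313. Within batch 2, OKO4 to OKO7 against OWT, edgeR called 0 of 240 V genes, against 0.0801% of all genes, and 49 had an unadjusted p under 0.05, against 2.03% of all genes. No V gene was without overlap between OKO and OWT, against 0.54% of all tested genes. Ighv11-2 and Igkv14-126 had log2 fold changes of -0.52 ± 1.13 (adjusted p = 0.852) and -0.56 ± 1.28 (adjusted p = 0.859).

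The difference between the age effects, OKO against YKO minus OWT against YWT, gave 0 called V genes in edgeR, as it did over all tested genes (0%). At an unadjusted p under 0.05 there were 61 V genes, against 4.62% of all genes. DESeq2 called 4 V genes, all of them negative, against 0.0178% of all genes. The smallest edgeR adjusted p was that of Igkv4-79 (-9.51 ± 1.80, adjusted p = 0.442). For Ighv14-4 the interaction was -8.73 ± 2.73 and for Igkv6-20 it was -7.73 ± 2.81, both with an edgeR adjusted p of 0.811. The contrast sets batches unevenly, since OWT is batch 2, YWT and YKO are batch 1, and OKO is in both.

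Genes that assemble, switch or transcribe V genes were read from a list of 23, all of which were tested. In OWT against YWT, YKO against YWT and OKO against OWT, 0 of the 23 were called. In OKO against YKO 6 were called, all of them lower in OKO, against 0.692% of all tested genes called lower. Among them were the B lineage factors Pax5 (log2 fold change -2.80 ± 0.60, edgeR adjusted p = 0.0207) and Ebf1 (-2.53 ± 0.58, adjusted p = 0.0306), and the transcription factors Irf8 (-2.36 ± 0.42, adjusted p = 0.00576), Spib (-5.26 ± 0.73, adjusted p = 0.000604) and Ikzf1 (-0.92 ± 0.23, adjusted p = 0.0493). Pax5 was at 0.383 to 7.17 CPM in OKO and 1.42 to 19.6 CPM in YKO, and Ebf1 at 1.07 to 7.43 and 4.27 to 35.1 CPM. Both thus overlapped between the groups, with their highest values in OKO1 and YKO2. Rag1 and Rag2, the recombinase genes, and Dntt, which adds bases at V(D)J joints, were among the 17 that did not pass.

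Of 17 constant region and B lineage genes, 0 were called in the other 3 comparisons of groups. In OKO against YKO 2 were called, both lower in OKO, against 0.692% of all tested genes called lower. Among them was Ms4a1, which encodes CD20, at a log2 fold change of -3.47 ± 0.72 (edgeR adjusted p = 0.0176). Ighm (-0.69 ± 1.27, adjusted p = 0.805) and Igkc (-0.08 ± 1.23, adjusted p = 0.977) did not pass. Over the 242 V genes the median log2 fold change in OKO against YKO was -0.84, while over all tested genes it was 0.23.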

How the data were processed

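RNA of sorted HSCs was made into SMART-Seq v4 libraries. Per the labels and the study's methods, the authors trimmed reads with Trim Galore 0.4.3 and cutadapt, aligned them to mm10 with STAR and counted them per gene with featureCounts, and the deposited values are raw counts per gene symbol. Strand and multi-mapping settings are not given in the sources used here. Bisulfite libraries of the series were not analysed here. V genes, marker genes and gene lists were chosen with earlier results of these data known.

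Shares were computed within the heavy and within the light V reads of a library, with 95% Wilson intervals, and CPM on the total count. Groups were compared with R 4.3.3 and the quasi-likelihood test of edgeR 4.0.16 (filterByExpr, TMM, 1 fit over all groups without a batch term), adjusted over all 33690 genes. Values after ± are approximate SEs, the size of the log2 fold change divided by the square root of the F statistic. They are rough for genes with few reads in a group. DESeq2 1.42.0, other normalizations and filters, a batch term, a replicate block and leaving out each library were the alternatives. The test was checked on simulated counts of OKO against YKO. It recovered 93 of 97 genes changed by a log2 of 4 and 49 of 103 changed by a log2 of 2, with 3 false calls. The simulated spread followed the trend over all genes, so the check does not cover V genes that differ widely within a group. Named V genes are those that led a library, had the 5 highest median shares of a chain, were called, or lay next to the count threshold; partners in likeness and other genes named for context, such as Ighv3-2, Igkv6-29 and Igkv4-73, were chosen after their values were seen. Positions and gene types came from GENCODE M21 on mm10, which matched all 346 V symbols, and promoters of all genes from RefSeq GRCm38.p6. Values of some listed genes are not reported here.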

Additional observations from a re-analysis of the deposited data

Results flagged for a closer look

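In each group the highest and lowest library was set against the others by Dixon's criterion, for 17 measures and 68 groups of values. It marked 17. Chance marks about 1 in 20 groups if values are normally distributed. That rate need not hold for skewed shares, some of genes named because they led a library, so 17 of 68 is not read as an excess. The measures are not independent, since shares of a chain add up to 100%. No explanation was tested for any of them.

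YWT2 stood apart from the other YWT libraries in 4 measures. Its V reads were 8.40% of the library (nearest other YWT library 0.934%), its effective number of heavy V genes was 1.05 (nearest 15.2), and its leading heavy V share, that of Ighv3-6, was 97.6% (nearest leading share 14.6%, and nearest share of Ighv3-6 12.03%). OWT4 stood apart in lambda, with 72.5% of light V reads (nearest 5.98%) and 46.8% for Iglv1 (nearest 4.05%).

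OKO7 was far from the other OKO libraries in V reads (6.35% of the library, nearest 2.75%), lambda share (36.0%, nearest 7.74%), Iglv1 (34.2%, nearest 7.19%) and Ighv14-4 (29.7%, nearest 9.16%). OKO6 was far from them in both genes of a pair, Ighv11-2 (36.3%, nearest 10.7%) and Igkv14-126 (40.8%, nearest 11.4%). Ighv1-26 was high in OKO5 (26.7%, nearest 4.76%) and in OWT2 (7.35%, nearest 1.15%). The remaining libraries were OWT1 for Igkv6-20 (22.1%, nearest 5.53%), YKO3 for Ighv1-53 (17.3%, nearest 4.40%) and YKO4 for Ighv3-6 (10.9%, nearest 2.94%).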

How the results depend on the processing

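The counts of called V genes changed with the settings, and the cause was not tested. In OWT against YWT the count of 0 became 3 with a replicate block, 4 with only the compared groups and 8 with DESeq2, where 0.0267, 0.158 and 0.401% of all genes were called. In YKO against YWT the count of 0 became 2 with a batch covariate, 1 with the replicate block, 3 with only the compared groups and 20 with DESeq2, against 0.101, 0.0742, 0.127 and 0.416% of all genes. In OKO against YKO the count of 4 became 9 at a mean CPM of at least 1, 109 with a batch covariate, 24 with the replicate block, 1 with robust edgeR, 2 with only the compared groups, 104 with OKO of batch 1 only and 11 with DESeq2, against 8.70, 19.1, 5.27, 1.5, 0.377, 17.9 and 6.23% of all genes. Leaving out 1 library gave 1 to 9, with 1 without YKO1 or YKO2, 2 without OKO1, OKO3 or OKO4, 7 without OKO5 and 9 without OKO7. The called V genes were lower in OKO, except for 1 at a mean CPM of at least 1, 1 without OKO7 and 4 with DESeq2. The log2 fold change of Ighv3-1 ran from -12.23 to 1.29 with 1 library left out, and turned to 1.29 without YKO2.

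In OKO against OWT the count of 1 became 0 with upper-quartile normalization, a mean CPM of at least 1, a batch covariate, the replicate block, robust edgeR, only the compared groups or OKO of batch 2 only, and was 0 to 1 with a library left out (0 without OWT1, OWT3, OKO1, OKO3, OKO4, OKO5, OKO6 or OKO7). The interaction count of 0 became 4 with DESeq2 and was 0 with the replicate block. Nothing in the labels pairs libraries by replicate number. The correlations of same-numbered libraries ran from -0.33 to 0.36. They were not set against those of differently numbered libraries, so they do not decide whether libraries were paired. Of these counts under an alternative, 103 stayed within 1.5 times and 37 moved. Of the other values, 189 stayed as they were, 49 kept their direction but were no longer past the threshold, 11 moved and 1 reversed. OKO1, with 2879 heavy V reads, limits the precision of shares most. V symbols under the count threshold held 5.52% of its V reads, against 0.00296 to 0.510% in the other libraries. The source of these reads was not tested, and the Wilson intervals do not cover it.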
